A study of Oryctolagus cuniculus with 6 samples.

Results

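Translation initiation and elongation factors bring the ribosome to an mRNA, place it at the start codon and supply it with aminoacyl-tRNA. They were followed here in rabbit basilar artery smooth muscle cells as all non-control array probes whose gene name begins with EIF or EEF, or whose description names a eukaryotic translation initiation or elongation factor, with pseudogenes left out. This rule took 117 of 43603 probes, which stand for 48 of 10033 named genes. Of these, 113 probes and 46 genes were bright enough to be tested.

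The study compared female New Zealand White rabbits in which both common carotid arteries had been tied, which sends more blood through the basilar artery, with sham rabbits whose carotid arteries were exposed but not tied (n = 3 arrays in each group). In both groups the basilar artery was taken on day 5, perfused with elastase and collagenase for 45 min and triturated to free the cells. The labels name no genetic change, no age and no sort of the freed cells, and they do not say whether an array holds RNA of 1 rabbit or of several, so p-values measure the spread between these arrays. RNA was labelled with Cy3 and hybridised to one-colour Agilent arrays.

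Cap-dependent initiation begins when eIF4E binds the mRNA cap and, with the scaffold eIF4G and the helicase eIF4A, opens the leader of the mRNA. The small ribosomal subunit joins with eIF3, with eIF1A and with eIF2, a GTP-binding trimer that carries the initiator tRNA and is recharged by the exchange factor eIF2B. Kinases that phosphorylate the alpha subunit of eIF2 block that recharging, while eIF4E binding proteins keep eIF4E from eIF4G. In elongation, eEF1A delivers aminoacyl-tRNA and is recharged by the eEF1B complex. In arterial smooth muscle the translation machinery is best known as a target of growth factor and mTOR signalling.

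Each factor was read by 60-base probes, and a change belongs to the stretch of transcript that a probe matches. The 117 probes formed 78 groups that share no run of 40 bases or more, so many probes of a gene are shifted copies of one another and not separate readings. The 3 probes of EIF4G1 shown first read the scaffold gene at 2 places; the capitals mark the 56 bases that the first pair share. They lie at chr14:81388625-81388684, chr14:81388629-81388688 and chr14:81379545-81379718 (minus strand; positions of the array files, build oryCun2), and the third crosses a gap in the genome.
EIF4G1 tiled probe a: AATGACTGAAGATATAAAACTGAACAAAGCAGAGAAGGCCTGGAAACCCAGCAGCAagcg
EIF4G1 tiled probe b: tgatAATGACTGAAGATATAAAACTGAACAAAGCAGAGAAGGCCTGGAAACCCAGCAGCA
EIF4G1 separate probe: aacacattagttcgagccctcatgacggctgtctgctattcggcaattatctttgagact
The 3 probes of the helicase gene EIF4A2 follow each other along the transcript and gave changes of different size; the capitals mark the 20 bases shared by the first and second. They lie at chr14:78842180-78842485, chr14:78842140-78842199 and chr14:78842100-78842159 (oryCun2, minus strand), and the first, whose mapped ends are 306 bases apart, crosses a gap in the genome.
EIF4A2 probe a: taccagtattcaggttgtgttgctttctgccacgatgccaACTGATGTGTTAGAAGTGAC
EIF4A2 probe b: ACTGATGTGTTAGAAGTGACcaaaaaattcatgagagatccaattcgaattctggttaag
EIF4A2 probe c: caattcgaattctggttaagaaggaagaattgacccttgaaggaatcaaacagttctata
The 4 genes below had only 1 probe each, and their results rest on it. The files give no position for the EEF1A2 probe; the others lie at chr14:45708696-45708755 (EEF1G, plus strand), chr5:2588772-2591261 (EIF3K, plus strand) and chr2:158731812-158731979 (EIF2B4, plus strand) of oryCun2.
EEF1A2: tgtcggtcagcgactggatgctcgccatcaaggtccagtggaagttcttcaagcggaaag
EEF1G: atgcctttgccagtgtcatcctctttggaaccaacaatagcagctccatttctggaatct
EIF3K: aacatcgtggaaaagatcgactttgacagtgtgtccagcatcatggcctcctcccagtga
EIF2B4: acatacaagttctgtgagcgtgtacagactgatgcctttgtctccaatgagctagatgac

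Levels are given as normalised log2 signal, that is log2 of the processed spot signal minus the 75th percentile of its array, so 0 is the level of that percentile. A change is the ligated mean minus the sham mean of these log2 values, with the standard error (SE) of the limma fit. Between 58.7% and 63.7% of probes were well above background on each array, no spot was saturated, and the 75th percentile lay at a signal of 157 to 251. All sham arrays lay on 1 slide and all ligated arrays on another, so ligation and slide coincide and their effects cannot be told apart. The arrays did not pair off by group. The SD of the log2 difference over all tested probes was 0.381 between sham 2 and sham 3, but 1.28 between sham 1 and each of them, and sham 1 was nearer to ligated 2 (0.918) and ligated 1 (1.05). Ligated 3 lay about as near to sham 2 (0.958) and sham 3 (1.01) as to ligated 2 (0.937) and ligated 1 (1.02). Leading results are therefore also given without sham 1 or ligated 3 where that changes the call. Of 10 spike-in controls, 3 were lower on every ligated array than on every sham array after this scaling, and their median change was -0.81.

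The smooth muscle marker ACTA2 was bright on all 6 arrays (6.18 to 8.87), but the level of smooth muscle markers differed between the groups. Of 8 smooth muscle markers 7 were tested and all 7 had lower means on the ligated arrays (2 passed the test), with a median change of -1.16 and a summed signal (markers added up after undoing the log2) of 1075 to 1784 on sham arrays and 370.7 to 862.1 on ligated arrays. All 5 tested genes of dividing cells passed as higher, with a median change of 3.76. Of 5 tested fibroblast and meningeal markers 3 passed as higher, namely LUM, COL1A1 and COL1A2. DCN changed by 0.36 and PTGDS went the other way, by -0.85, both with overlapping groups. The summed signal of the 5 was 506.0 to 624.7 on sham and 1102 to 1329 on ligated arrays. None of the 4 endothelial and 4 macrophage markers passed, and of the neuronal and glial markers, 2 had a probe and neither was bright enough to test. In RNA of a mixed cell suspension, fewer cells of a type and less RNA per cell cannot be told apart. The part of these differences in the factor values below was not tested.

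No factor probe and no factor gene passed the test. With limma's moderated test and Benjamini-Hochberg adjustment over all 27410 tested probes, 0 of 113 factor probes reached an adjusted p of 0.05, where 8.35% of all probes did so (5.71% higher and 2.65% lower). For genes, each read by its brightest tested probe, the count was 0 of 46, against 8.88% of all 7579 named genes tested (6.2% higher and 2.68% lower). At an unadjusted p of 0.05, 26 factor probes differed, 8 higher and 18 lower, where 27.4% of all probes did, 15.2% higher and 12.2% lower; for genes the counts were 3 higher and 10 lower (6.52% and 21.7%), against 15.4% and 12.4% of all genes and 27.8% in both directions. Thus fewer factor genes than genes at large were above this level on the higher side and more on the lower side, a description to which no test is attached.

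The same lean showed in values that do not rest on the variance model. The groups did not overlap for 18 factor genes, against 35.5% of all genes. The 3 ligated arrays all lay below the 3 sham arrays for 15 of 46 factor genes (32.6%; 17.7% of all genes) and above them for 3 (6.52%; 17.8% of all genes), and the groups overlapped for 28. Of factor probes 28 were lower and 8 higher without overlap (24.8% and 7.08%), where 17.1% and 17.6% of all probes were, or 34.7% in both directions. The change was below 0 for 28 factor genes, or 60.9%, against 49.7% of all genes, and for 76 factor probes, or 67.3%, against 49.5% of all probes. The median change was -0.15 over factor genes and 0.0052 over all named genes. This offset depended on the processing. Relative to the median of all probes it was -0.15 here and after median centring, and -0.020 after quantile normalization. After normexp background correction it was -0.36, and -0.22 when spots of high background were also left out. Centring arrays on their median, which moved the median of all probes to -0.19, placed 78.3% of factor genes below 0, and with array weights the share was 52.2%.

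**Figure D1:**
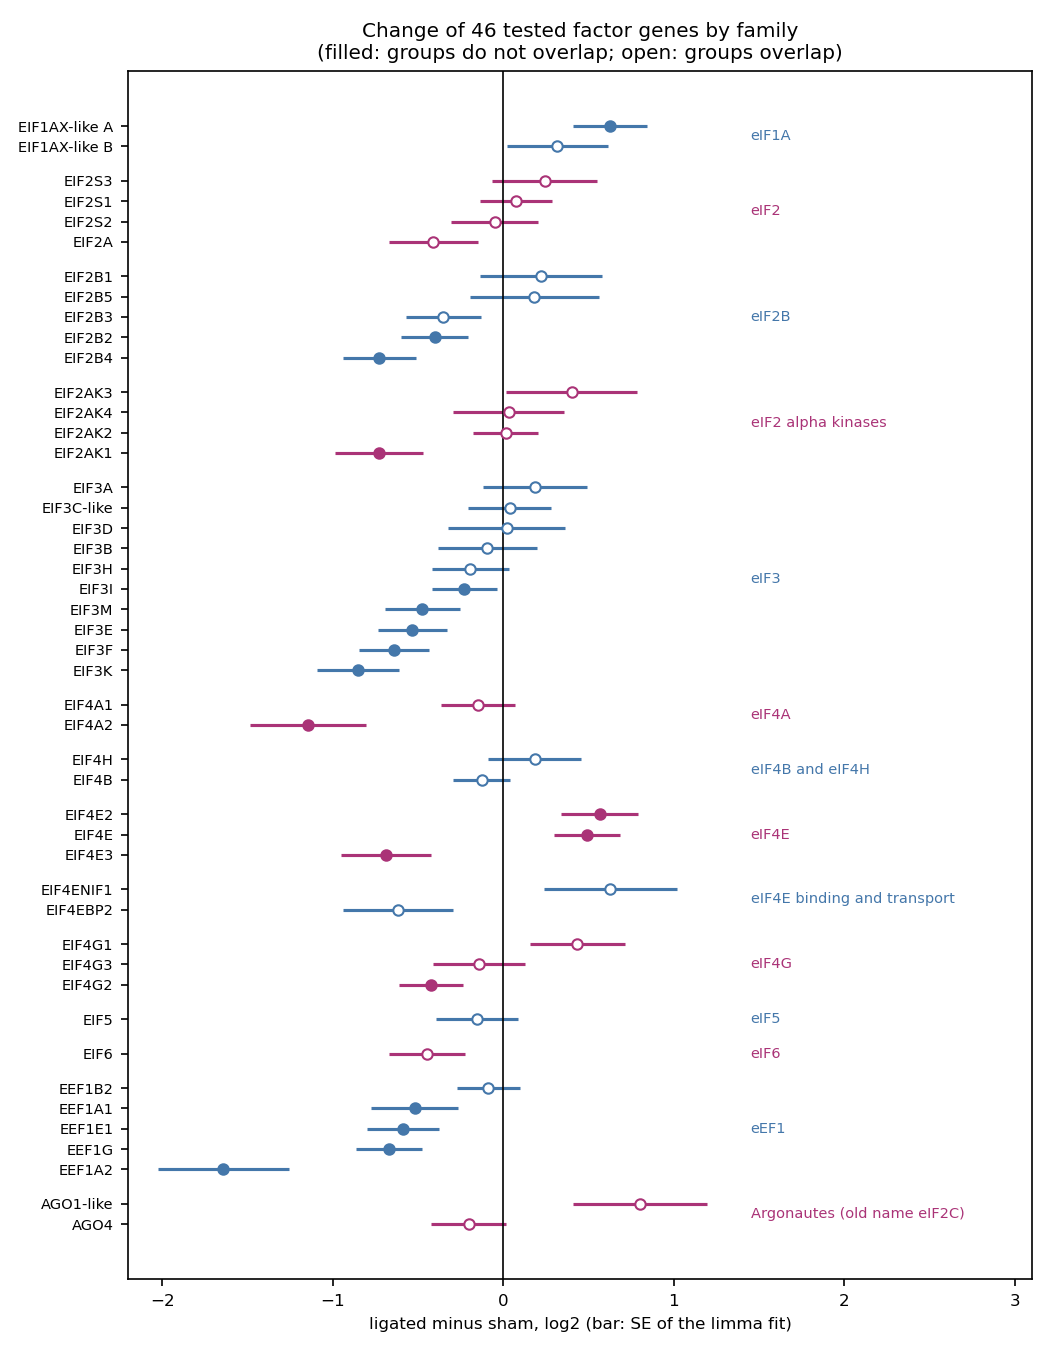
Change of each of the 46 tested factor genes, ligated minus sham in log2 (x axis), with the SE of the limma fit as bars and genes grouped by family (y axis); filled points mark genes whose 3 sham and 3 ligated arrays do not overlap. All 5 eEF1 genes lie left of 0, 15 filled points lie left of 0 and 3 right of it, and no gene passed an adjusted p of 0.05.

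The elongation factor 1 family leaned one way. All 5 measured genes had a change below 0, against 49.7% of all genes, and their median was -0.59. In 4 of them every ligated array lay below every sham array, as in 17.7% of all genes. No gene of the family passed the test, and the family as a whole was not tested. EEF1A2, the form of eEF1A known from skeletal muscle, heart and neurons, read -1.37, -2.40 and -2.47 on sham arrays 1, 2 and 3 and -4.27, -3.39 and -3.50 on the ligated arrays. Every ligated array was below every sham array, and the mean difference was -1.64 ± 0.38 (SE), or 3.12-fold lower, with an adjusted p of 0.0502, just short of the threshold. The probe was dim: it was well above background on 3 sham arrays and on 2 ligated arrays. The call turned with the processing, since 6 of 18 alternatives gave an adjusted p under 0.05, while normexp background correction gave a change of 0.23. Markers of skeletal and cardiac muscle moved unevenly beside it: of 5 listed genes 3 were tested and 1 passed, CKM at -2.52, with ACTA1 at -0.83 and TNNC1 at 0.94, and the summed signal was 271.7 to 540.0 on sham and 118.2 to 344.0 on ligated arrays. The part of these cells in the EEF1A2 value was not tested.

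The widely expressed eEF1 genes gave smaller and tighter differences. EEF1G, a subunit of the eEF1B exchange complex, read 7.08, 6.96 and 6.89 on sham arrays and 6.06, 6.47 and 6.39 on ligated arrays. Ligated 1 was the lowest and no array of one group reached the other, with a change of -0.67 ± 0.19 (SE; adjusted p = 0.0838). EEF1A1, the general form of eEF1A, read 8.26, 7.66 and 7.60 against 7.24, 7.60 and 7.13, a change of -0.52 ± 0.25 (adjusted p = 0.241). Its groups only just separated, sham 3 and ligated 2 being level to the second decimal, and other genomes hold many near-identical copies of this gene, so its signal is uncertain. EEF1E1, a small protein of the aminoacyl-tRNA synthetase complex, had 5 tiled probes, which changed by -0.50 to -0.63 (adjusted p 0.117 to 0.182). EEF1B2, the exchange subunit itself, went against this pattern: its 5 tested probes gave changes of -0.14 to 0.086, and the groups overlapped in each; a sixth probe was well above background on no array. After quantile normalization or in the deposited value table the eEF1 median was nearer to 0, at -0.29 and -0.28.

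**Figure D2:**
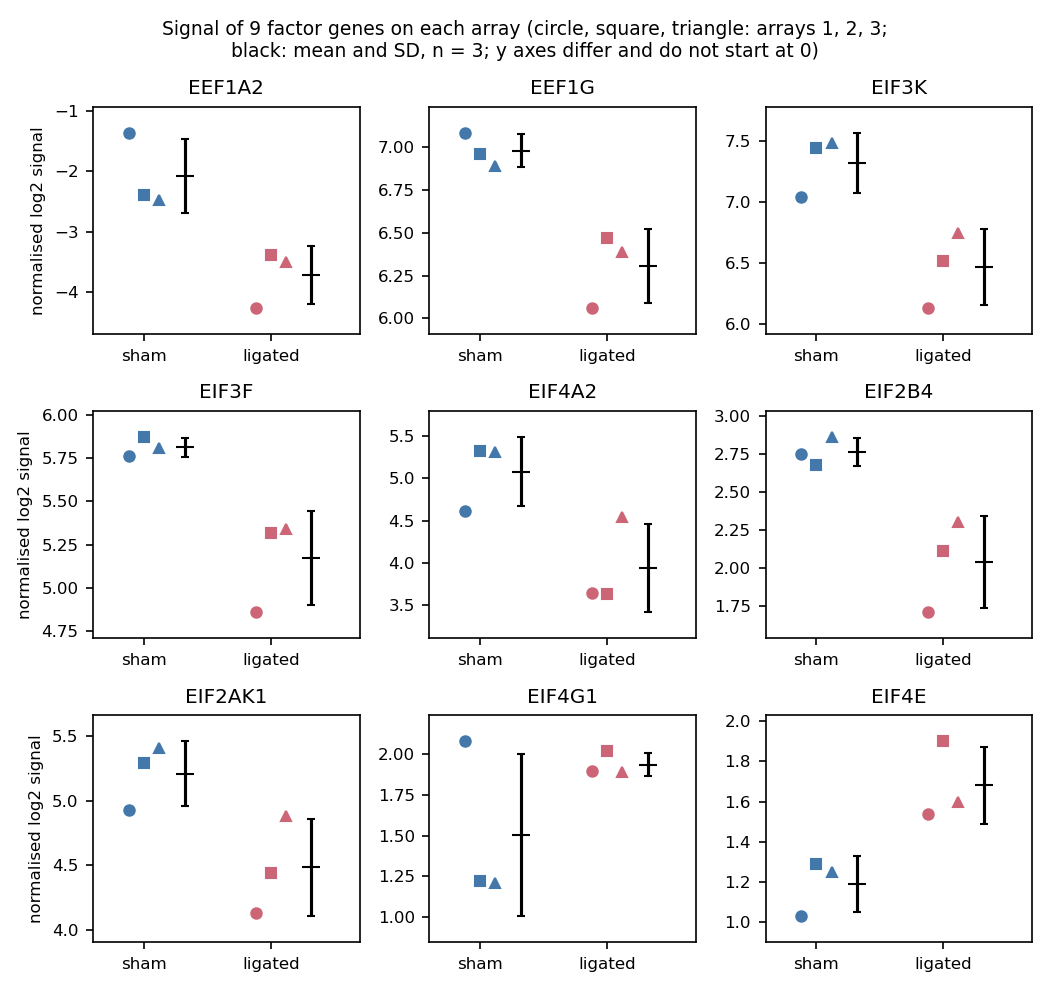
Normalised log2 signal (y axis, scaled separately per gene and not starting at 0) of 9 factor genes on each array, by group (x axis); circle, square and triangle are arrays 1, 2 and 3, and black marks give the mean and SD (n = 3). The groups separate in 8 of the 9 genes; in EIF4G1, read here by its brightest probe, sham 1 at 2.08 lies above the ligated arrays while sham 2 and sham 3 lie at 1.22 and 1.21.

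The largest initiation complex is eIF3, and no gene of it passed the test. Of 10 measured subunit genes 7 had a change below 0, against 49.7% of all genes, and the median was -0.21. In 5 of the 10 all ligated arrays lay below all sham arrays, as in 17.7% of all genes. EIF3I is counted here through its brightest probe alone. Of its 7 probes, 1 separated the groups and 4 had a change above 0. EIF3K, a small peripheral subunit, read 7.04, 7.44 and 7.48 on sham arrays and 6.13, 6.52 and 6.75 on ligated arrays. All ligated arrays were lower, by a mean of -0.85 ± 0.24 (SE; 1.80-fold lower; adjusted p = 0.0794). EIF3F, a subunit with an MPN domain, read 5.76, 5.87 and 5.81 against 4.86, 5.32 and 5.34. The sham arrays lay close together and the ligated arrays all below them (change -0.64 ± 0.20, adjusted p = 0.105). EIF3E differed by -0.53 at the brighter of 2 probes (adjusted p = 0.148) and by -0.35, with overlapping groups, at the dimmer, and EIF3M changes of -0.29 to -0.47 on 3 probes.

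The other measured subunits of eIF3 gave smaller changes. EIF3A, the largest scaffold subunit, read 4.45, 3.60 and 3.42 on sham arrays and 3.87, 4.20 and 3.97 on ligated arrays, with the ligated arrays inside the sham range and a change of 0.19 ± 0.30. Its second probe gave -0.13. EIF3B (-0.092; its second probe was too dim to test), a gene annotated as EIF3C-like (0.037) and EIF3D, which can itself bind the cap (0.020), had overlapping groups too, with SEs of 0.25 to 0.34. EIF3H (-0.18 to -0.20 on 5 tiled probes) also overlapped. The EIF3I probes fell into sets of opposite sign, 3 at -0.16 to -0.23 and 4 at 0.093 to 0.21, none with an adjusted p under 0.469. The subunits were divided in this way after the values were known, and the difference between them was not tested.

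In the cap-binding complex, changes of both signs occurred among the cap-binding proteins and among the scaffolds, and no gene passed the test. The eIF4A pair had a median of -0.65, which rests on EIF4A2. Its brightest probe read 4.61, 5.32 and 5.31 on sham arrays and 3.64, 3.63 and 4.54 on ligated arrays, so that ligated 3 lay just below sham 1. The change was -1.15 ± 0.34 (SE; 2.21-fold lower; adjusted p = 0.0881), and without ligated 3 it was -1.45 (adjusted p = 0.0422). The neighbouring probe b, which overlaps it, and probe c, which overlaps only b, gave -0.42 and -0.39, again with no overlap between groups (adjusted p 0.191 and 0.218). EIF4A1, the closely related helicase of most tissues, changed by -0.15 ± 0.22 on its brightest probe (3.49, 3.31 and 3.28 against 2.86, 3.44 and 3.33) and by 0.0047 and 0.074 on the others, with overlap in all 3.

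Of the 3 genes that were higher with no overlap, 2 encode cap-binding proteins. EIF4E, the cap-binding protein that limits initiation, read 1.03, 1.29 and 1.25 on sham arrays and 1.54, 1.90 and 1.60 on ligated arrays, all ligated arrays being higher (change 0.49 ± 0.19 SE; adjusted p = 0.163). EIF4E2, also called 4EHP, which binds the cap but does not recruit eIF4G, read 0.24, 0.13 and 0.14 against 0.47, 1.13 and 0.62. It too was higher on every ligated array (0.57 ± 0.23; adjusted p = 0.167), with ligated 2 above the others. EIF4E3, a divergent relative, was dim and pointed the other way, at -0.69 ± 0.27 (adjusted p = 0.156) on its brightest probe; all 5 of its probes were below 0, 4 of them with overlapping groups. The single EIF4E1B probe was well above background on no array and was not tested. The binding protein EIF4EBP2, a target of mTOR that holds eIF4E back, changed by -0.60 to -0.73 on 5 probes, with overlap in each since ligated 1 read 1.03 inside the sham range of 0.71 to 1.36. EIF4ENIF1, which carries eIF4E into the nucleus, changed by 0.63 ± 0.39 with overlap and was dim. No probe bore the symbol EIF4EBP1 or EIF4EBP3.

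The scaffold gene EIF4G1 gave the highest change of any factor probe among those whose groups did not overlap, but only at one of its 2 places. The tiled probes a and b shown above belong to a set of 5 whose mean read -0.19, -0.78 and -1.18 on sham arrays and 0.45, 0.38 and -0.02 on ligated arrays. All 5 were higher on every ligated array, by 0.95 to 1.02 (adjusted p 0.0721 to 0.110). The separate probe, which is brighter and stands for the gene, read 2.08, 1.22 and 1.21 against 1.90, 2.02 and 1.89, a change of 0.43 ± 0.28 with overlap (adjusted p = 0.354). Sham 1 was the highest sham array at both places; without it 3 of the tiled probes had an adjusted p under 0.05. The changes at the 2 places differed by 0.55 (exact two-sided permutation test over arrays, p = 0.1, the smallest that 3 against 3 arrays allow, and 0.2 adjusted over 4 such comparisons). These probe sets were chosen after their values were seen, so the test decides nothing here.

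**Figure D3:**
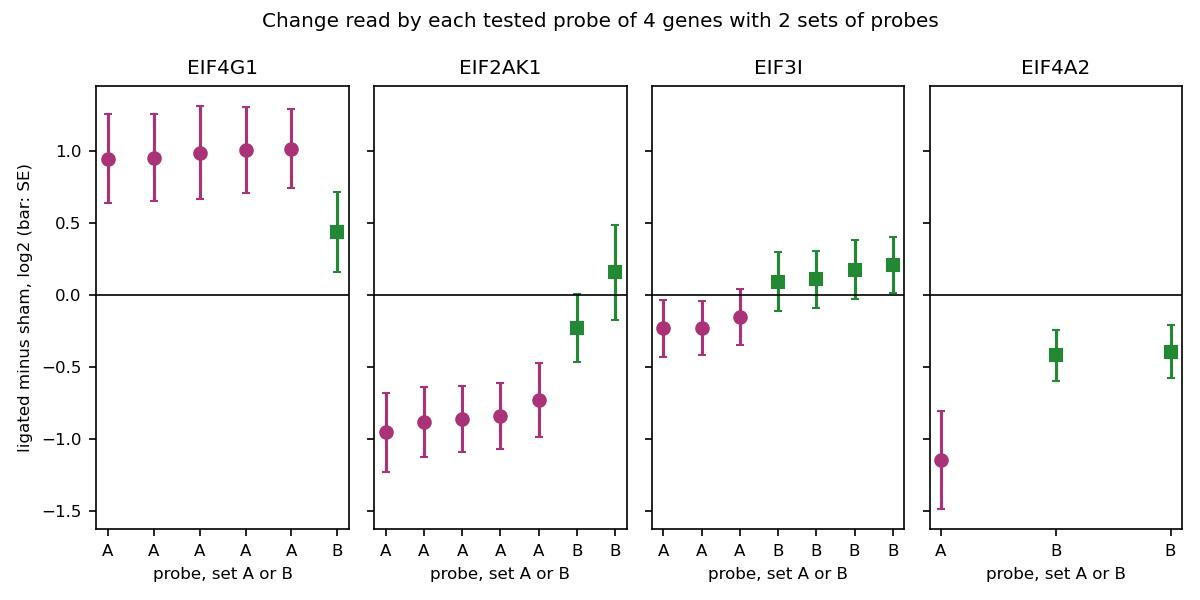
Change read by each tested probe (ligated minus sham, log2, y axis; bars are SE) of 4 genes with 2 sets of probes, set A as circles and set B as squares (x axis). The EIF4G1 tiled probes lie at 0.95 to 1.02 and the separate probe at 0.43; the EIF2AK1 sets lie at -0.73 to -0.95 and at -0.23 and 0.16; EIF3I lies on both sides of 0; the first EIF4A2 probe lies at -1.15 and the others at -0.42 and -0.39.

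The other scaffolds did not follow EIF4G1. EIF4G2, also called DAP5, a relative that lacks the eIF4E-binding part, read 4.37, 4.40 and 4.49 on sham and 3.76, 4.11 and 4.12 on ligated arrays. All ligated arrays were lower (-0.42 ± 0.19; adjusted p = 0.204), and its 5 probes ranged from -0.21 to -0.42. EIF4G3 changed by -0.14 ± 0.27 with overlap. Of the helicase partners, EIF4B changed by -0.13 ± 0.17 at its brightest probe and by -0.13 to -0.49 over 6 probes, with overlap in each. EIF4H changed by 0.18 ± 0.27 with overlap.

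No gene of the eIF2 trimer or of its exchange factor passed the test. The alpha, beta and gamma subunit genes EIF2S1, EIF2S2 and EIF2S3 changed by 0.072, -0.050 and 0.24 (SE 0.21 to 0.31), and the groups overlapped in all 3. EIF2A, a separate factor that can also bring initiator tRNA, changed by -0.41 ± 0.26 at the brighter of 2 probes and by -0.051 at the dimmer, again with overlap. Among the 5 eIF2B subunits 3 had a change below 0 and 2 above it, with a median of -0.35 that turned to 0.028 after normexp background correction. EIF2B4, the delta subunit of the regulatory core, read 2.75, 2.68 and 2.86 on sham arrays and 1.71, 2.11 and 2.30 on ligated arrays. Every ligated array was lower, with ligated 1 the lowest, and the change was -0.73 ± 0.21 (SE; adjusted p = 0.0872). EIF2B2, the beta subunit of that core, read -0.49, -0.82 and -0.48 against -0.83, -1.09 and -1.07 at its brightest probe. These groups barely separated (-0.40 ± 0.19, adjusted p = 0.237). Only 1 of its 5 tiled probes separated the groups, and the 5 changed by -0.28 to -0.40. EIF2B3 changed by -0.35, while the alpha subunit EIF2B1 and the catalytic epsilon subunit EIF2B5 changed by 0.22 and 0.18, all with overlap. The latter pair were dim, and their SEs of 0.36 and 0.38 cover changes of either sign.

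Of the 4 kinases of eIF2 alpha, only EIF2AK1 had groups that did not overlap. EIF2AK1, the heme-regulated kinase best known from red cell precursors, read 4.93, 5.29 and 5.41 on sham arrays and 4.13, 4.44 and 4.88 on ligated arrays at its brightest probe. The change there was -0.73 ± 0.26 (SE; adjusted p = 0.134), and the 5 probes of that tiled set ran from -0.73 to -0.95 (adjusted p 0.0696 to 0.134). Without ligated 3, 4 of the 5 had an adjusted p under 0.05. The 2 probes at another place in the transcript gave -0.23 and 0.16 with overlapping groups. The changes of the sets differed by -0.82 (exact two-sided permutation test over arrays, p = 0.2, adjusted 0.2). With 3 against 3 arrays that p cannot fall below 0.1, and the sets were chosen after their values were seen. The test therefore decides nothing here. The 2 probes were also much dimmer, with sham means of 0.22 and -2.39 against 4.91 to 5.21 for the tiled set. The part of signal level in their values was not tested. These 2 probes are shown because they disagree with the rest; the capitals mark the 40 bases that they share, and the files give no position for either.
EIF2AK1 probe f: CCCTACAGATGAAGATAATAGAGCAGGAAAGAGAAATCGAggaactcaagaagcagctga
EIF2AK1 probe g: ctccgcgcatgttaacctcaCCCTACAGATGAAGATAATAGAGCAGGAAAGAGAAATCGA
Erythroid markers varied between the arrays beside this gene. Of 4 listed, 2 were tested and neither passed. HBB2 read 7.08, 8.10 and 8.05 on sham and 4.32, 4.51 and 8.74 on ligated arrays. ALAS2 read -2.43, -2.34 and -2.26 on sham and -6.01, -6.28 and -1.10 on ligated arrays. Its change was -2.12 with an adjusted p of 0.343. Their summed signal was 135.3 to 273.8 on sham and 19.99 to 428.0 on ligated arrays, highest on ligated 3. Ligated 3 also had the highest ligated reading of EIF2AK1, EIF3K, EIF2B4 and EIF4A2, though not of EEF1G. The part of red cell RNA in the EIF2AK1 value was not tested.

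The other eIF2 alpha kinases showed no separation. EIF2AK2, the kinase activated by double-stranded RNA and also called PKR, changed by 0.015 ± 0.19, and EIF2AK4, the amino acid sensor GCN2, by 0.032 ± 0.33. EIF2AK3, the kinase of the endoplasmic reticulum also called PERK, changed by 0.40 ± 0.38 on its brightest probe (-2.23, -1.32 and -1.20 against -0.58, -1.40 and -1.57). Only ligated 1 lay above the sham range; the change was 0.077 without sham 1 and 0.10 without ligated 1, and the 5 probes ranged from -0.036 to 1.11 with overlap in all.

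Factors of start codon selection and subunit joining gave single values. The array holds 2 genes described as X-linked eIF1A-like. The first read 0.56, 0.24 and -0.06 on sham arrays and 0.76, 0.91 and 0.94 on ligated arrays, all ligated arrays being higher (0.62 ± 0.22; adjusted p = 0.126). The second changed by 0.32 ± 0.29 with overlap, and the files do not say whether the pair are copies of 1 gene, so their readings are uncertain. EIF5, which triggers GTP hydrolysis by eIF2, changed by -0.15 ± 0.24 with overlap. EIF6, which keeps the large ribosomal subunit from joining too early, read 1.63, 1.81 and 1.86 against 1.00, 1.33 and 1.64, where ligated 3 lay level with sham 1 (-0.44 ± 0.22; adjusted p = 0.251). The Argonautes, which guide small RNAs to mRNAs and entered through their old name eIF2C, changed by 0.80 ± 0.39 (AGO1-like) and -0.20 ± 0.22 (AGO4), both with overlap. AGO2's only probe was well above background on no array.

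Factor genes that the name rule missed were read as well; this group of 11 was listed after the files had been seen. Of 10 tested none passed, the median change was -0.46, and in 4 all ligated arrays were below all sham arrays, as in 17.7% of all genes. EEF1D, the other exchange subunit of eEF1B, read 8.10, 8.31 and 8.13 on sham and 6.95, 7.31 and 7.75 on ligated arrays, a change of -0.84 ± 0.25 (adjusted p = 0.0880). It thus lay with EEF1G and apart from EEF1B2. EIF5B, the GTPase of subunit joining, changed by -0.68 ± 0.21 (adjusted p = 0.0985). EIF2D changed by -0.65 (adjusted p = 0.117) and EIF5A2 by -0.45 (adjusted p = 0.150). EIF1, the start codon gatekeeper, changed by -0.36 ± 0.23 and the eEF2 kinase gene EEF2K by -0.59 ± 0.37, both with overlap. The EEF2K value ran from -0.19 without ligated 1 to -0.90 without ligated 2. No probe bore the symbol EEF2 or EIF5A.

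The wider pathway lists held 1 called gene, where 8.88% of all genes were called, so the lists hold no excess of calls. Of 10 tested genes of release, recycling and poly(A) tail binding none passed (median -0.23). GSPT2, a release factor GTPase, was dim and its groups overlapped. It read -2.07, -3.33 and -3.03 on sham and -1.17, -1.40 and -2.22 on ligated arrays, a change of 1.21 ± 0.42 (adjusted p = 0.124). The poly(A)-binding protein partners PAIP1 and PAIP2 changed by -0.44 and -0.61 (adjusted p 0.164 and 0.185). Of 11 tested genes of signalling to the factors none passed (median -0.16). RICTOR, the defining subunit of mTOR complex 2, read 0.01, 0.42 and 0.51 on sham and -0.75, -0.67 and -0.34 on ligated arrays, a change of -0.90 ± 0.22 (adjusted p = 0.0587). It was under the threshold in 7 of 19 alternatives, among them the fit without sham 1 (-1.05, adjusted p = 0.0468), while MTOR itself changed by -0.16 ± 0.30 and the S6 kinase gene RPS6KB1 by -0.21 ± 0.18. PDPK1 changed by -0.73 (adjusted p = 0.120) and DHPS, which takes part in making the hypusine of eIF5A, by -0.50 (adjusted p = 0.147).

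The genes that charge tRNA and the mitochondrial factors were read in the same fit. None of 19 tested cytosolic tRNA synthetase genes passed (median -0.083): GARS1, the glycyl-tRNA synthetase, changed by 0.95 ± 0.28 (adjusted p = 0.0914; 1.20 with adjusted p = 0.0435 without sham 1, and under the threshold in 2 of 19 alternatives), TARS1, for threonine, by -1.17 ± 0.37 (adjusted p = 0.104) and NARS1, for asparagine, by -0.64 (adjusted p = 0.151). Among 6 tested mitochondrial factors 1 fell. MTRF1L, a mitochondrial release factor, read 1.04, 0.92 and 0.88 on sham and -0.12, -0.06 and 0.19 on ligated arrays, tight groups that stood far apart. It fell by 0.95 ± 0.18 on the log2 scale (SE; adjusted p = 0.0288) and kept the call in 9 of 19 alternatives, with changes of -0.53 to -1.14 throughout. Leaving out any array other than ligated 3 ended its call (adjusted p 0.0567 to 0.122). TUFM, the mitochondrial elongation factor Tu, changed by -0.74 ± 0.27 (adjusted p = 0.144) with all ligated arrays lower, and MTIF3 by -0.34 (adjusted p = 0.285).

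**Figure D4:**
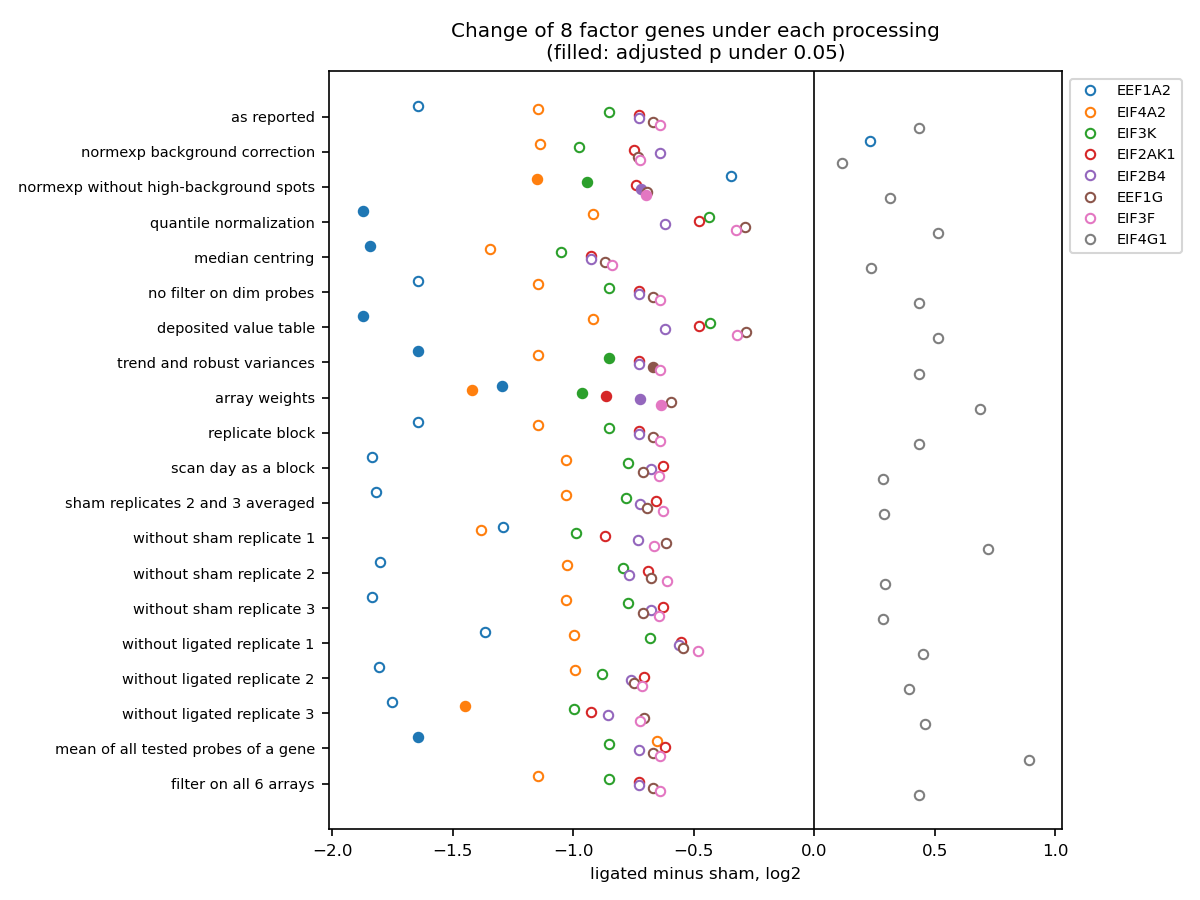
Change of 8 factor genes (ligated minus sham, log2, x axis) under the processing reported here and each alternative (y axis); filled points have an adjusted p under 0.05, and each gene has 1 colour. All genes but EEF1A2 keep their sign throughout; EEF1A2 reads 0.23 after normexp background correction, and no gene is filled in the top line.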

How the data were processed

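Total RNA of basilar artery smooth muscle cells was read on 6 one-colour arrays (3 sham, 3 ligated). The submitters' processing notes name Agilent Feature Extraction 10.7. The deposited processed signal is an intensity after background subtraction within the array, per the file headers; deposited raw spot and local background signals are intensity values too. Marks for outlier, saturated or well-above-background spots are flags of the kind other, per the file headers. The authors' deposited value table is in log2 units with equal array medians (5.05), and the step behind it is not stated in the labels or headers.

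Outlier spots were left out, repeated spots were averaged, and each array's 75th percentile of log2 processed signal was subtracted. Probes well above background on at least 3 of 6 arrays were tested with limma 3.58.1 in R 4.3.3 (two-sided; Benjamini-Hochberg over all tested probes; threshold 0.05); the script was tested on simulated data. The tested probe with the highest mean over all arrays stands for a gene. Names came from the files and a rabbit RefSeq table (assembly mOryCun1.1, names only), which named 108 of 117 factor probes; 9 probes (7 genes) were named from their description. Named genes are the up to 2 with the smallest p in each family, up to 3 in each pathway list, and a fixed set of central factors; further members are given as values. Beyond that rule, the probe sets, the genes missed by the name rule and the genes named beside them were chosen after their values were seen. The members and lists were chosen with earlier results of these data known. The alternatives were normexp correction (offset 50), the same without spots of high background, quantile and median normalization, other filters, the deposited table, other variance models, a block for the replicate number or for scan day, averaging sham 2 with sham 3, the mean of a gene's probes, and leaving out each array. Replicate numbers do not pair the arrays. The number of arrays limits the precision.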

Additional observations from a re-analysis of the deposited data

How the results depend on the processing

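No factor probe passed as reported, and none passed in 10 of 19 alternatives. Except with the mean of a gene's probes, a gene is counted below only where the probe that stands for it was called. Other probes of EIF2AK1 and EIF4G1 were also called in settings where the standing probe was not, so called probes can belong to more genes than counted. Of factor probes called lower there were 8 (4 genes) after normexp without spots of high background, 1 (1 gene) after quantile normalization, 1 (1 gene) after median centring, 1 (1 gene) in the deposited table, 7 (3 genes) with trend and robust variances and 11 (7 genes) with array weights; with the mean of a gene's probes, 1 gene. Of probes called higher there was 1 with trend and robust variances and 6 (1 gene) with array weights. These counts are of 113 factor probes, and the same settings also called many of all 27410 probes. Lower calls were 1039 after normexp without spots of high background, 794 after quantile normalization, 1052 after median centring and 796 in the deposited table. Trend and robust variances called 1820 higher and 1119 lower, and array weights 3090 and 2398. With the mean of a gene's probes, 258 of 7579 genes were lower. Leaving out 1 array gave 0 to 3 probes higher (3 without sham 1, all of EIF4G1), 0 to 5 lower and 0 to 1 genes lower (5 and 1 without ligated 3, of EIF2AK1 and EIF4A2). Over all probes 1530 were higher without sham 1, and 713 were lower without ligated 3. Beyond calls, 20 values changed sign, none with an adjusted p under 0.760. With normexp these were EEF1A2 (0.23), EIF4E3 (0.48), EIF2B2 (0.028), EIF2S1 (-0.074) and AGO4 (0.44; 0.032 without spots of high background). With median centring they were EIF4H (-0.014), EIF2S1 (-0.13) and EIF3A (-0.011). With scan day as a block, and equally without sham 3, the only array of its scan day, they were EIF4H (-0.0063), EIF2S1 (-0.076) and EIF3A (-0.011). EIF1 read 0.028 after quantile normalization and 0.028 in the deposited table, and EIF5 read 0.036 with array weights. Leaving out 1 array gave -0.083 (without ligated 3) to 0.47 for EIF2S3, -0.26 to 0.025 (without ligated 1) for EIF4A1, -0.0063 to 0.43 for EIF4H, -0.076 to 0.21 for EIF2S1 and -0.011 to 0.50 for EIF3A. The causes were not tested. Family medians of eEF1, eIF1A, eIF3, eIF4A, eIF4E and eIF6 kept their sign in all 19 alternatives; that of eIF2 did not in 9.

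The replicate block called 0 factor probes (17 at an unadjusted p of 0.05; lowest adjusted p 0.0855). Same-numbered arrays deviated together by 0.432, -0.567 and 0.580 (correlation, replicates 1 to 3), so the numbers were not taken as pairs. Over all probes the block gave 1059 higher and 236 lower calls, against 1564 and 726. Normexp correction gave 0 calls on the whole array and 0 factor probes at an unadjusted p of 0.05. Leaving out an array of the sham 2 and sham 3 pair gave 515 and 482 calls higher, and averaging them 515 higher and 80 lower.

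Slide and ligation coincide, 3 arrays a group limit what can pass, and dim probes such as those of EEF1A2 and EIF4E3 depend most on background handling.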
